A study of Homo sapiens with 12 samples.

Results

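HMOX1, FTH1 and FTL, the genes of the inducible haem oxygenase and of both ferritin chains, were followed through 12 RNA sequencing libraries made from the prostate cancer line DU145, which grows from human cells kept in culture. The genes were found by symbol. All 3 were among the 1810 genes of the table that sets RSL3 against DMSO, and 1 of the 3, HMOX1, was among the 1424 genes and loci of the table that sets oeATOH8 against oeCTRL. RSL3 libraries came from cells given that inhibitor of the lipid peroxide reductase GPX4 for 24 h, and DMSO libraries from cells given the solvent, both with the genotype WT. oeATOH8 libraries came from cells made to overexpress the helix-loop-helix transcription factor ATOH8, and oeCTRL libraries from cells with the overexpression control. Each group had 3 libraries, and the labels used here name neither the dose of RSL3 nor the promoter or the clone behind the overexpression.

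Haem oxygenase opens the haem ring and gives biliverdin, carbon monoxide and free ferrous iron. Ferritin is a hollow shell of heavy chains, which oxidise ferrous iron, and light chains, which help lay it down as a mineral core, so that the iron cannot feed Fenton chemistry. All 3 genes are known targets of NRF2, a transcription factor activated by oxidants, and BACH1 is known to hold them down. Ferroptosis is a form of cell death driven by iron-dependent lipid peroxidation, and both the release and the storage of iron bear on it.

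Both tables hold only genes that the authors called different, so a gene outside them could not be assessed, and a call among listed genes says little by itself. Over listed genes the libraries held from 2523743 to 3096832 reads in the RSL3 table and from 1508188 to 2226518 in the ATOH8 table. These sums are not library depths. In the RSL3 table replicates 2 and 3 were nearly alike in both groups: comparing their reads gave 1.80 in RSL3 and 1.64 in DMSO as chi-square over degrees of freedom, where counting error alone gives about 1. Comparisons with replicate 1 gave 59.1 to 101. How many independent cultures each group holds is not given in the sources used here, so replicate 1 is given apart where results rest on it. In bulk RNA, fewer cells of a type and less RNA per cell cannot be told apart.

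HMOX1 (chromosome 22, 35381096 to 35394207, plus strand, GRCh38) was higher in every RSL3 library than in any DMSO library. Its normalised read count, the reads divided by the authors' size factor, was 10854 in RSL3 replicate 1 and 3239.9 and 3458 in RSL3 replicates 2 and 3. It was 2185 in DMSO replicate 1 and 742 and 763 in DMSO replicates 2 and 3. Replicate 1 was the highest library in RSL3 and in DMSO, and the groups did not overlap. The mean was 5851 ± 4334 in RSL3 and 1230.0 ± 827 in DMSO (SD, n = 3 each). HMOX1 rose by a log2 fold change of 2.21 (SE 0.57, limma adjusted p = 0.0265).

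FTH1, the ferritin heavy chain (chromosome 11, 61964285 to 61967634, minus strand, GRCh38), was also higher in all 3 RSL3 libraries. It had 178852 normalised reads in RSL3 replicate 1 and 86194 and 85939.8 in RSL3 replicates 2 and 3, against 79998 in DMSO replicate 1 and 34277 and 34206 in DMSO replicates 2 and 3. The groups did not overlap, but DMSO replicate 1 lay just under RSL3 replicates 2 and 3. FTH1 rose by a log2 fold change of 1.27 (SE 0.44, limma adjusted p = 0.0407), with means of 116995 ± 53569.5 in RSL3 and 49494 ± 26418 in DMSO (SD, n = 3 each).

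FTL, the ferritin light chain (chromosome 19, 48965309 to 48966879, plus strand, GRCh38), had 133677 normalised reads in RSL3 replicate 1 and 56511 and 56208 in RSL3 replicates 2 and 3. It had 63038 in DMSO replicate 1 and 30168 and 29894 in DMSO replicates 2 and 3. Here the groups overlapped, because DMSO replicate 1 lay above RSL3 replicates 2 and 3. The log2 fold change was 0.97 (SE 0.44), and FTL did not pass without the replicate number in the model (limma adjusted p = 0.0658). With the replicate number as a block it passed (limma adjusted p = 0.00232), as did 99.3% of all tested genes, 53.2% passing as higher and 46.1% as lower.

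**Figure D1:**
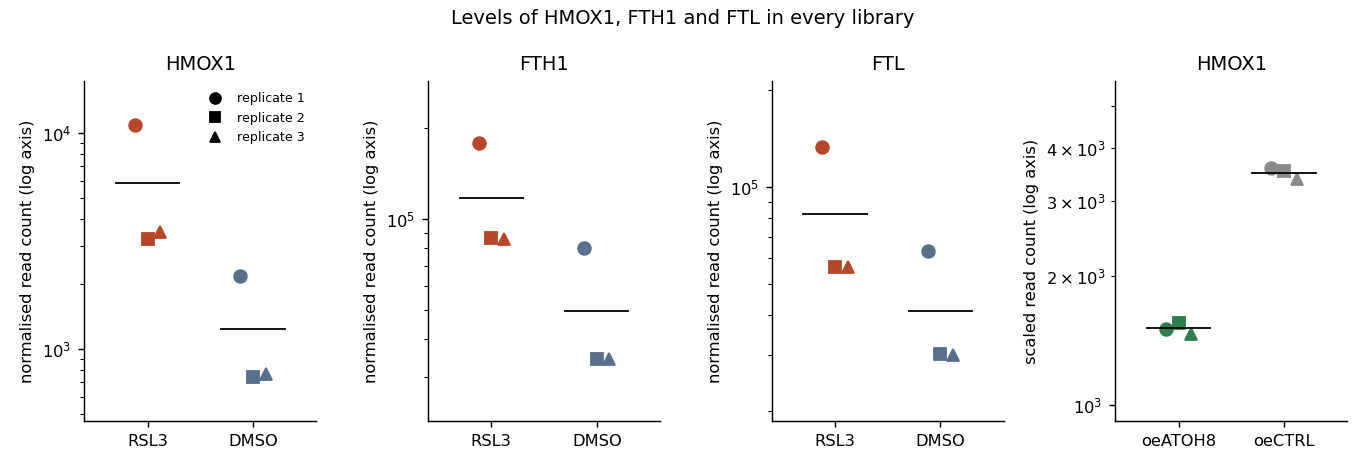
Level of each gene in every library on a log axis, as normalised read counts for RSL3 and DMSO and as scaled read counts for oeATOH8 and oeCTRL. Symbols mark the replicate number and black lines the group mean. Replicate 1 is the highest library of its group for all 3 genes in RSL3 and in DMSO, and HMOX1 is lower in all 3 oeATOH8 libraries than in any oeCTRL library.

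Thus 2 of the 3 genes passed, where 82% of the 1732 listed genes tested passed and 43.1% passed as higher. RSL3 and DMSO did not overlap for 86.4% of the 1810 listed genes, 48.5% with RSL3 higher, so neither count sets these genes apart from the table. Their place in it is given by the size of the change. Among the 929 tested genes with a log2 fold change above 0, whose median was 0.76, HMOX1 lay above 97.8%, FTH1 above 86.0% and FTL above 69.8%.

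Between libraries of the same number the RSL3 to DMSO fold varied far less than the levels did. HMOX1 was 4.97-fold higher in replicate 1, 4.37-fold in replicate 2 and 4.53-fold in replicate 3. FTH1 was 2.24-fold higher in replicate 1 and 2.51-fold in replicates 2 and 3 alike. FTL was 2.12-fold higher in replicate 1, 1.87-fold in replicate 2 and 1.88-fold in replicate 3. The order of the folds, HMOX1 above FTH1 above FTL, held in all 3 replicate numbers, with the closest pair being FTH1 and FTL in replicate 1.

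**Figure D2:**
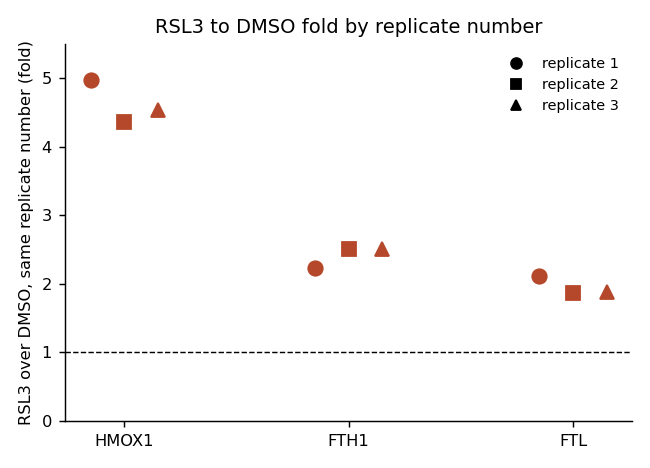
Fold of RSL3 over DMSO for libraries of the same replicate number, with a dashed line at no difference. The points of HMOX1 sit between 4.37 and 4.97, those of FTH1 between 2.24 and 2.51 and those of FTL between 1.87 and 2.12.

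The calls depended on which libraries were kept. Without DMSO replicate 2 or 3 the HMOX1 call was lost (limma adjusted p = 0.0952 and 0.0935), and the FTH1 call was lost without any one library other than DMSO replicate 1 (limma adjusted p from 0.0573 to 0.133). Most listed genes lost their calls in the same way. With all libraries 1421 passed, against 6 without DMSO replicate 2 and 8 without DMSO replicate 3. Leaving out RSL3 replicate 1, 2 or 3 left 1000, 352 and 317 passing. With all 59792 annotated genes counted as tests, none of the 3 passed without the block, where 0% of the 1732 listed genes tested did. With the block HMOX1 had a limma adjusted p of 0.0495 and was 1 of 2 passing genes (0.115%), the other being ATOH8.

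Replicate 1 was high for these genes even without RSL3. HMOX1 in DMSO replicate 1 was 2.90-fold its mean in DMSO replicates 2 and 3, a ratio above that of 99.9% of the 1391 listed genes averaging 50 normalised reads or more. The same ratio was 3.24 in RSL3, above 98.8% of those genes. For FTH1 it was 2.08 in RSL3 (above 92.5%) and 2.34 in DMSO (above 99.6%), and for FTL 2.37 in RSL3 (above 96.0%) and 2.10 in DMSO (above 99.1%). The median log2 ratio over the same genes was 0.28 in RSL3 and 0.22 in DMSO. The labels name no batch. With replicate 1 left out of both groups the fold was 4.45 for HMOX1, 2.51 for FTH1 and 1.88 for FTL.

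**Figure D3:**
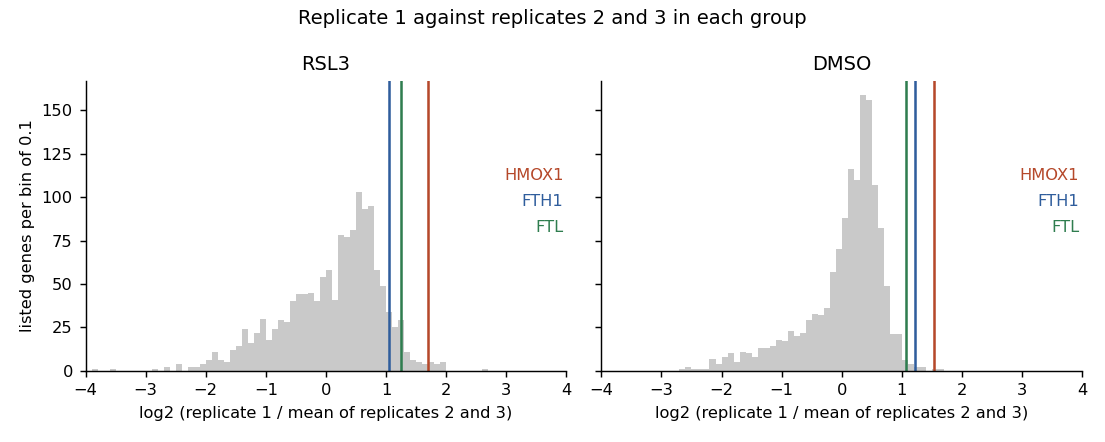
Distribution over 1391 listed genes of the log2 ratio of replicate 1 to the mean of replicates 2 and 3, in RSL3 and in DMSO, with vertical lines for HMOX1, FTH1 and FTL. All 3 lines lie in the right tail of both panels, with HMOX1 at 1.70 in RSL3 and 1.54 in DMSO.

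Levels per kilobase used 1 reference transcript per gene (1229 bases for FTH1, 878 for FTL and 1822 for HMOX1). FTH1 has 2 transcripts annotated as principal, of which 1 was used. On this measure HMOX1 stood below both ferritin chains, whose group means differed by less than their SD. FTH1 had 95196 ± 43588 normalised reads per kilobase in RSL3 and 40271.5 ± 21495 in DMSO, and FTL had 93544 ± 50842 in RSL3 and 46735 ± 21705 in DMSO. HMOX1 had 3211 ± 2379 in RSL3 and 675 ± 454 in DMSO (SD, n = 3 throughout). Within libraries the order of the chains varied. FTL was above FTH1 per kilobase in RSL3 replicate 1 (152252 against 145526) and in all 3 DMSO libraries (71797, 34360 and 34048 for FTL, against 65092, 27890 and 27833 for FTH1). In RSL3 replicates 2 and 3 it was below FTH1, with 64363 and 64018 for FTL against 70134 and 69927 for FTH1. The FTH1 values leave out the reads of the overlapping BEST1 row described below, which stood at 0.292 to 0.304 of those of FTH1. Reads of these 2 genes cannot be told apart, so the order of the chains rests on how such reads were assigned.

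Ratios between genes within a library do not depend on how libraries are scaled. The FTH1 to FTL ratio of normalised reads was 1.34, 1.53 and 1.53 in RSL3 replicates 1, 2 and 3, against 1.27, 1.14 and 1.14 in DMSO. The ratio was higher in RSL3 than in DMSO in all 3 replicate numbers, by 1.05-fold in replicate 1 and 1.34-fold in replicates 2 and 3 alike. The HMOX1 to FTH1 ratio was 0.0607, 0.0376 and 0.0402 in RSL3, against 0.0273, 0.0217 and 0.0223 in DMSO. Neither pair of groups overlapped, with an exact two-sided permutation p of 0.1 for each, the smallest that 3 against 3 can give. The HMOX1 to FTL ratio was the steadiest across replicate numbers, higher in RSL3 by 2.34-fold, 2.33-fold and 2.41-fold in replicates 1, 2 and 3.

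**Figure D4:**
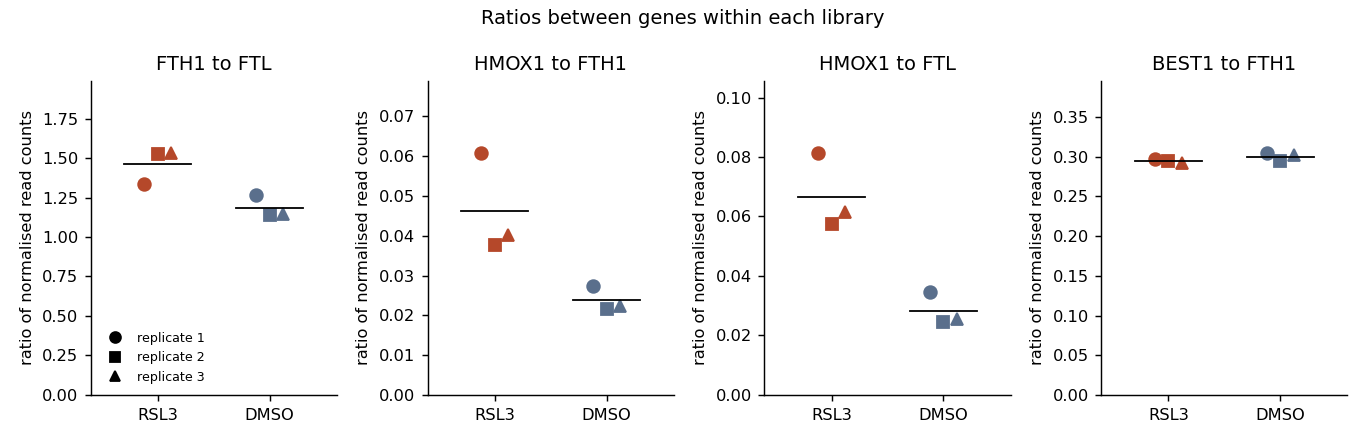
Ratio of normalised read counts between gene pairs in each RSL3 and DMSO library, with symbols for the replicate number and black lines for group means. The first 3 ratios are higher in all RSL3 libraries than in any DMSO library, while the BEST1 to FTH1 ratio stays between 0.292 and 0.304 in all 6.

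One other row of the table moved with FTH1 almost exactly. BEST1 encodes bestrophin 1, a chloride channel known from the retinal pigment epithelium. Its row (chromosome 11, 61946722 to 61965515, plus strand) overlaps the FTH1 span on the opposite strand by 1231 bases, 36.7% of that span. BEST1 had 53209.6, 25381 and 25064 normalised reads in RSL3 and 24327.5, 10095 and 10331 in DMSO. The BEST1 to FTH1 ratio was 0.298, 0.294 and 0.292 in RSL3 and 0.304, 0.295 and 0.302 in DMSO, and it did not separate the groups (exact two-sided permutation p = 0.2). Whether counting used strand is not given in the sources used here, so reads of BEST1 and FTH1 cannot be told apart, and the BEST1 row cannot be read as a level of bestrophin. FTH1 and FTL also have many processed pseudogenes. No row of either table carried the name of a ferritin pseudogene or of another ferritin or haem oxygenase gene, and how the aligner shared such reads is not given in the sources used here.

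FTL was the member with a promoter entry in the RefSeq table (GRCh38.p14). Its 250 upstream bases are shown because the ferritin genes are described above by their shared direction, with the ATTGG pentamer, the reverse complement of a CCAAT box, in capitals (chr19:48965059-48965308, plus strand).
FTL upstream: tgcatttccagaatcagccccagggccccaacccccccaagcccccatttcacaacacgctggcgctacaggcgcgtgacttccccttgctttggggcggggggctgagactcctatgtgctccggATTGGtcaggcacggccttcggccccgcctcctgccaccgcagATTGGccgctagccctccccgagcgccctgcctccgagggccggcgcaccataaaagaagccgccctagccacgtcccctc
Searched on both strands, ATTGG was found 2 times, with first bases at -124 and -81 from the start, and 32.0% of 35116 windows of the same length hold it. GGGCGG, a GC box, was also found 2 times, and 42.6% of windows hold it. TGACNNNGC, a core of the antioxidant response element, was not in this window, and 10.9% of windows hold it. CANNTG, the E-box read by helix-loop-helix factors, was not there either, and 61.8% of windows hold it. Its form with CG at the centre, CACGTG, is in 6.34% of windows. TATAAA was not found, and 10.7% of windows hold it.

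Ferritin messages are also known for an iron-responsive element near the 5′ end, a hairpin with the loop CAGTGN that iron regulatory proteins bind to hold back translation when iron is low. The loop was found on the sense strand once in the first 50 transcribed bases of FTL, at base 39, and is in capitals (chr19:48965333-48965358, plus strand), while 6.36% of all such windows hold CAGTGN.
FTL transcribed site: gtctcttgcttcaaCAGTGTttggac
This layer of control acts on protein and is not measured by RNA counts. ACO1, which encodes iron regulatory protein 1, had 492, 1187 and 1237 normalised reads in RSL3 and 1195, 2015 and 2010.0 in DMSO. Its groups overlapped through DMSO replicate 1, and its log2 fold change of -0.91 (SE 0.39) did not pass (limma adjusted p = 0.0545, or 0.00374 with the replicate block).

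The other iron and haem genes were read from lists of 93 distinct genes, which also take in a list of 11 for NRF2 and BACH1 control. Of the 93, 16 were in the RSL3 table with the members included, SQSTM1 being the 1 from the control list. Of the 16, 11 passed as higher, SQSTM1 among them, and 2 as lower, where 43.1% and 38.9% of all tested genes did. Their median log2 fold change was 0.95, against 0.51 over all tested genes. HMOX1 at 2.21, FTH1 at 1.27 and FTL at 0.97 all lie above that median, and HMOX1 and FTH1 are among the 11. The count and the median therefore lean on the members and do not describe the other genes alone. With libraries scaled over listed genes instead of by the authors' factors, the median of all tested genes moved by -0.29 to -0.47 and all 16 directions held. Of the 16, 6 passed as higher and 2 as lower with TMM and with relative log expression, where 16.1% and 15% of all tested genes passed as higher and 37.4% and 36.9% as lower. With total scaling 5 passed as higher and 0 as lower, beside 8.89% and 27.8% of all genes. With the replicate block, or with replicates 2 and 3 alone, all 16 passed, as did 99.3% and 98.9% of all genes.

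Haem breakdown and transport held 5 of its 13 genes. Besides HMOX1, SLC48A1, which carries haem out of lysosomes, rose, with 4186, 2089 and 2134 normalised reads in RSL3 and 1574, 1145 and 1039 in DMSO (log2 fold change 1.11, SE 0.31, limma adjusted p = 0.0311). BLVRB, a biliverdin reductase, rose with 6826, 3511 and 3437 in RSL3 against 2924, 2087 and 1965 in DMSO (log2 fold change 0.93, SE 0.31, limma adjusted p = 0.0384). In both genes replicate 1 was again the highest library of its group, and RSL3 and DMSO did not overlap. FLVCR2, a haem and choline carrier, fell, with 30.4, 41.3 and 44.1 in RSL3 and 53.9, 83.2 and 70.7 in DMSO (log2 fold change -0.82, SE 0.30, limma adjusted p = 0.0429), a call lost with total scaling (-1.28, limma adjusted p = 0.0600). The efflux pump ABCG2 had 13.0, 46.0 and 50.7 in RSL3 and 6.59, 19.9 and 8.73 in DMSO and did not pass (limma adjusted p = 0.0514, or 0.0140 with the block).

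Genes of mitochondrial iron use held 3 of 8 listed names, all of which rose. The mitochondrial iron importer SLC25A28 had a log2 fold change of 0.78 (SE 0.26), the iron-sulfur scaffold ISCU 0.51 (SE 0.17) and the cysteine desulfurase NFS1 0.50 (SE 0.16), with limma adjusted p of 0.0393, 0.0387 and 0.0379. The iron export list held ABCB8, a mitochondrial transporter, alone of 9, and it rose by 0.69 (SE 0.26, limma adjusted p = 0.0450). Under none of the 3 scalings over listed genes did any of these 4 pass: ABCB8 was then at 0.22 to 0.41, SLC25A28 at 0.31 to 0.49, ISCU at 0.04 to 0.23 and NFS1 at 0.03 to 0.21 on the log2 scale. Iron sensing held 4 of 14. NEO1, a co-receptor of the hepcidin pathway, fell by 0.58 on the log2 scale (SE 0.21, limma adjusted p = 0.0426), while SMAD6 and SMAD7, inhibitors of BMP and TGF-beta signalling, rose by 1.52 (SE 0.20) and 1.07 (SE 0.21). With total scaling the calls of NEO1 (-1.06, limma adjusted p = 0.0593) and SMAD7 (0.60, limma adjusted p = 0.124) were lost. Iron storage held FTH1 and FTL alone of 11, so the ferritin receptor for autophagy NCOA4 could not be assessed. Neither the 15 genes of iron uptake nor the 13 of haem synthesis had a row in this table.

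**Figure D5:**
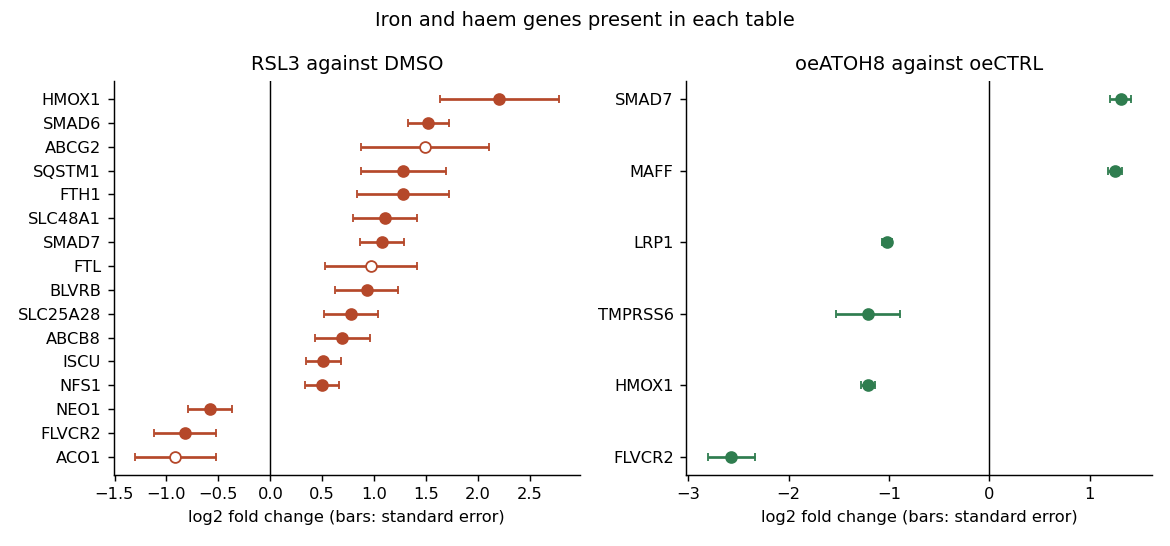
Log2 fold change with its standard error for the listed iron and haem genes present in each table. SQSTM1 and MAFF, from the NRF2 and BACH1 control list, are shown with them. RSL3 against DMSO was tested with limma and oeATOH8 against oeCTRL with edgeR. Filled points passed at an adjusted p of 0.05 and open points did not. HMOX1 lies at 2.21 in RSL3 and at -1.21 in oeATOH8.

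Of the 37 listed NRF2 targets, 16 were in the RSL3 table, all higher and 15 passing, with FTL the exception. Beside this, 43.1% of all tested genes passed as higher and 82% in either direction. The 16 include the 3 members, without which 13 remained. HMOX1, FTH1, FTL, BLVRB and SQSTM1 were also counted among the iron, haem and control lists above, so these counts are not separate. The 4 smallest p-values were those of AKR1C1, AKR1C2, OSGIN1 and TRIM16L. AKR1C1, an aldo-keto reductase, had 492, 409 and 393 normalised reads in RSL3 and 46.2, 71.0 and 74.2 in DMSO (log2 fold change 2.76, SE 0.26, limma adjusted p = 0.00285). Its close copy AKR1C2 stood at a log2 fold change of 1.96 (SE 0.27), and reads of such near-identical copies may be shared between them. OSGIN1, an oxidative stress gene, had 3901, 1953 and 1949 in RSL3 and 1109, 719 and 650.2 in DMSO (log2 fold change 1.61, SE 0.33), with replicate 1 highest in both groups, and TRIM16L stood at 1.22 (SE 0.29). SQSTM1, the autophagy receptor that binds KEAP1 and another of the 16, stood at 1.28 (SE 0.41). These lists were chosen with earlier results of these data known and are not independent evidence of a direction. All 16 directions held under the scalings over listed genes, with 10 passing under each, beside 16.1%, 15% and 8.89% of all tested genes passing as higher with TMM, relative log expression and total scaling. All 16 passed with the block or with replicates 2 and 3 alone, where 99.3% and 98.9% of all genes did.

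The genes with the nearest pattern to each member were ranked over the 6 libraries by the root mean square difference of centred log2 values, among 1382 others. For FTH1 they were BEST1 at 0.02, SQSTM1 at 0.11 and EPHX1, an epoxide hydrolase, at 0.12. For FTL they were TLCD1 at 0.07, the ribosomal protein gene RPL37 at 0.10 and the lysosomal protease gene CTSD at 0.11. For HMOX1 they were CLU, a secreted chaperone, at 0.28, GNAO1 at 0.34 and the ATP receptor gene P2RX6 at 0.42. The ferritin chains differed from each other by 0.17, and HMOX1 from FTH1 by 0.52. This measure counts the size of a change as well as its shape. The Pearson correlation of HMOX1 was 0.992 with FTH1, 0.991 with CLU, 0.973 with GNAO1 and 0.960 with P2RX6. All these points share the libraries, and the step from replicate 1 to the others enters the measure together with the step from DMSO to RSL3.

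Markers of other cell types could be checked only where listed. CD68, a lysosomal protein used as a macrophage marker, was the one of 10 macrophage markers in the RSL3 table, with 1498 to 4290.3 normalised reads in RSL3 and 787 to 1607 in DMSO. It did not pass (limma adjusted p = 0.0538, or 0.00282 with the replicate block). Of 9 epithelial markers, CDH1, EPCAM and CLDN7 were listed and fell, with a summed level of 195 to 393 in RSL3 and 1005 to 1053 in DMSO. Luminal prostate, erythroid, fibroblast and endothelial markers had no row there. The part of either list in the results above was not tested.

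HMOX1 went the other way when ATOH8 was overexpressed. In the overexpression comparison ATOH8 itself had 76508, 72569 and 76043 reads in the oeATOH8 libraries and 13, 10 and 4 in the oeCTRL libraries. HMOX1 had 1547, 1518 and 1513 reads in the oeATOH8 libraries, against 3684, 3405 and 3285 in the oeCTRL libraries. All 3 oeATOH8 libraries were lower than any oeCTRL library, and for this gene the 3 libraries of each group lay close together. Over listed genes they were less alike. Comparing their reads gave 6.34 to 9.23 in oeCTRL and 12.8 to 39.3 in oeATOH8 as chi-square over degrees of freedom. On the scaled counts, HMOX1 averaged 1510.2 ± 45.4 in oeATOH8 and 3492 ± 106 in oeCTRL (SD, n = 3 each), 2.31-fold lower.

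HMOX1 fell by 1.21 on the log2 scale in oeATOH8 (SE 0.07, edgeR adjusted p = 1.63e-08, or 8.59e-07 with all 75204 annotated genes and loci counted as tests). All listed genes passed (100%), 58.6% as lower and 41.4% as higher, and 81.9% passed with every annotated gene counted, 46.3% as lower. The groups did not overlap for 99.6% of listed genes, 58.3% with oeATOH8 lower, so the call does not set HMOX1 apart. Its change was smaller than the median of -1.41 over the 835 lower genes, 71.0% of which had a more negative value. The size rests on how the groups are scaled, since the table holds called genes alone: with total, TMM or relative log expression scaling over listed genes HMOX1 was at -1.67, -0.90 and -0.30, while the median of all genes moved by -0.46, 0.31 and 0.91. It passed under all 3. FTH1 and FTL had no row in this table, so whether they changed with ATOH8 could not be assessed.

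Of the 93 genes of the iron, haem and control lists, 6 were in the ATOH8 table with HMOX1 included, 2 higher and 4 lower, all passing. MAFF, 1 of the 2 higher, came from the NRF2 and BACH1 control list. MAFF, a small MAF protein that pairs with NRF2 and with BACH1 on DNA, rose, with 3647, 3240 and 3435 reads in oeATOH8 and 1506, 1321 and 1429 in oeCTRL (log2 fold change 1.25, SE 0.07, edgeR adjusted p = 1.72e-08). FLVCR2 fell here too, with 31, 40 and 38 reads in oeATOH8 and 214, 186 and 236 in oeCTRL (log2 fold change -2.57, SE 0.24). LRP1, the receptor that takes up haem bound to haemopexin, fell by 1.02 on the log2 scale (SE 0.05). TMPRSS6, a protease that restrains hepcidin signalling, fell by 1.21 (SE 0.32, edgeR adjusted p = 0.00328, or 0.173 with every annotated gene counted), and SMAD7 rose by 1.31 (SE 0.10). Under relative log expression scaling the LRP1 and TMPRSS6 calls were lost, with all 6 directions held. NFE2L2, KEAP1 and BACH1 had no row in either table.

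Of the NRF2 targets, 6 of 37 were in the ATOH8 table with HMOX1 included, all lower and all passing, beside 58.6% of all genes passing as lower. Under relative log expression scaling 4 passed, beside 29.4% of all genes, and the calls of AKR1C2 and AKR1C3 were lost. ABCC2, an efflux pump for conjugates, had 216, 256 and 290 reads in oeATOH8 and 762, 676 and 833 in oeCTRL (log2 fold change -1.61, SE 0.14). AKR1C3 had 110, 106 and 141 reads in oeATOH8 and 316, 275 and 260 in oeCTRL (log2 fold change -1.28, SE 0.18), and neither gene's groups overlapped. The listed NRF2 targets in both tables were HMOX1, AKR1C1, AKR1C2 and PRDX1. PRDX1, a peroxiredoxin, had 9494, 9136 and 9413 normalised reads in RSL3 and 5660, 7229 and 7239 in DMSO, and 6135, 6157 and 6572 reads in oeATOH8 against 14067, 13624 and 13839 in oeCTRL. Its log2 fold change was 0.49 (SE 0.18) with RSL3 and -1.17 (SE 0.05) with oeATOH8. AKR1C1 stood at 2.76 with RSL3 and -1.57 with oeATOH8, and AKR1C2 at 1.96 and -1.51. Both comparisons passed for each of these 4 genes over listed genes. The RSL3 call of PRDX1 was lost under all 3 scalings over listed genes, at 0.20, 0.18 and 0.01 on the log2 scale. With every annotated gene counted, AKR1C2 did not pass in oeATOH8 (edgeR adjusted p = 0.406). In RSL3 none of the 4 then passed without the replicate block, where 0% of all tested genes did, and only HMOX1 of the 4 passed with it. The other genes of the pathway and marker lists in both tables, CDH1, FLVCR2 and SMAD7, each moved the same way in both. The tables were normalised separately, so no difference between them was tested.

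The patterns nearest to HMOX1 over the 6 libraries of the ATOH8 table, among 1053 genes, were ABHD4 at 0.03, the glutathione transferase GSTM3 at 0.03 and the interferon-induced OASL at 0.04 by the same measure. Of 20 erythroid markers, the globin genes HBA1, HBA2 and HBB were listed and rose, with a summed scaled count of 3222 to 55190.5 in oeATOH8 and 4.11 to 12.6 in oeCTRL. HMOX1 stayed between 1467 and 1557 scaled reads over the same 3 oeATOH8 libraries. The haem synthesis list, with ALAS2 on it, had no row in this table. Of 9 epithelial markers KRT8 and CDH1 were listed and fell, and of 6 fibroblast markers COL1A2 and COL3A1 rose, with summed scaled counts of 130.3 to 196 in oeATOH8 and 0 to 10.3 in oeCTRL. Their part in the HMOX1 result was not tested.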

How the data were processed

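The submitters' processing notes list the tools fastp, HISAT2, StringTie and DESeq2, with no version or order, and the builds hg38 and GRCh38. TRIzol was the extraction reagent, per the labels' protocols. The labels do not say whether replicates were separate cultures, so p-values measure only the spread between libraries, which may be technical. For RSL3 and DMSO the deposited values are a signal, with 1 step size per library. Dividing by it gave whole reads for 100% of values (tolerance 0.001), so these are read counts that the authors divided by size factors. The smallest recovered read count of a member was 874. For oeATOH8 and oeCTRL the authors deposited raw read counts by Ensembl identifier. Its column headings NC and OE were taken to mean oeCTRL and oeATOH8.

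RSL3 genes were named from RefSeq by identical span (1064, all members among them) or by sharing at least 0.5 of it (723), from GENCODE (9), or not at all (14). Of 1152 Ensembl identifiers, 1146 had a symbol. RSL3 values kept the authors' scale and were tested with limma 3.58.1 (trended variance) on log2(value + 1), and fold changes are on that scale. edgeR's filterByExpr was applied first, with a minimum count of 10 and a minimum total of 15, and all 3 members passed it. ATOH8 counts were tested with edgeR 4.0.16 by quasi-likelihood. Median ratios set the scale of libraries inside each group. Between groups the scale was the one that centres the gap in listed fold changes on 0, which takes the authors' fold limits as symmetric. P-values were two-sided and adjusted by Benjamini-Hochberg over listed genes, with a threshold of 0.05. DESeq2 1.42.0 and edgeR on recovered reads were alternatives, under R 4.3.3. The tests were tried on simulated counts that held no step between replicate 1 and the others, so that trial does not cover this feature of the RSL3 table.

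Equal replicate numbers of RSL3 and DMSO deviated together (correlations of 0.68, 0.61 and 0.61), each over the 0.1 set as the mark of pairing, so the replicate block is given where it changes a call. Replicate 2 did not correlate best with its own number, so these data set replicate 1 apart from the other two and do not by themselves match replicate 2 with 2 and 3 with 3. The named genes were the members, genes of the iron, haem and NRF2 lists, the 4 NRF2 targets with the smallest p, the 3 nearest patterns per member, relatives of the members and ATOH8. Genes flanking FTL were added after their values were seen. The members and lists were chosen with earlier results of these data known.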

Additional observations from a re-analysis of the deposited data

How the results depend on the processing

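For HMOX1 in RSL3, leaving out 1 library gave log2 fold changes from 1.64 to 2.72, and the call ended without DMSO replicate 2 or 3 and when every annotated gene was counted (2.21, limma adjusted p = 0.914). Leaving out 1 library gave 0.92 to 1.68 for FTH1, whose call also ended with TMM (0.99), relative log expression (0.97) and total (0.80) scaling over listed genes, and with every annotated gene counted (1.27), with or without the block. For FTL the range was 0.55 to 1.32, and FTL passed with DESeq2 (1.00), with the replicate block or replicate 1 as a term (0.97), with replicates 2 and 3 of both groups (0.91), and without DMSO replicate 1. HMOX1 in oeATOH8 ranged from -1.30 to -1.16 with 1 library left out and kept its call under all 14 alternatives. The replicate numbers of the ATOH8 table were not taken as pairs, since their correlations (0.04, 0.05 and 0.07) lay under the 0.1 mark. Each replicate there did correlate best with its own number, and the replicate block gave -1.21. The FTH1 to FTL log2 ratio difference ranged from 0.27 to 0.37 and the HMOX1 to FTH1 one from 0.72 to 1.06 with 1 library left out, and paired differences gave 0.31 and 0.93 (exact p = 0.25 each, the smallest for 3 pairs).

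The RSL3 count of passing genes, 1421 with 52.6% of them higher, was 926 (30.0% higher) with TMM, 898 (28.8%) with relative log expression and 636 (24.2%) with total scaling, 6 to 1500 with 1 library left out (6 without DMSO replicate 2, 8 without DMSO replicate 3, 352 without RSL3 replicate 2 and 317 without RSL3 replicate 3), and 0 with every annotated gene counted (2 with the block). There edgeR passed 0 and DESeq2 193, while 1554 genes had an unadjusted limma p under 0.05. The ATOH8 count of 1424 stayed between 1007 (relative log expression, 58.5% higher against 41.4%) and 1424. In RSL3 the block ended no call of a listed pathway or marker gene, and added those of FTL, ABCG2, ACO1 and CD68. The cause of these differences was not tested. The replicate 1 term, the annotated count with the block, the paired ratios and the list counts under other settings were chosen after seeing the data.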

Other observations

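The nearest listed genes on either side of FTL were chosen after their values were seen. BAX, the apoptosis effector, ends 3511 bases upstream on the same strand and had 4141, 1761 and 1711 normalised reads in RSL3 against 1776, 1251 and 1197 in DMSO, a pattern with replicate 1 highest that did not pass (log2 fold change 0.74, SE 0.36, limma adjusted p = 0.0761, or 0.00903 with the replicate block). GYS1, glycogen synthase, lies 1251 bases downstream on the opposite strand and had 2784, 2528 and 2552 in RSL3 against 3872, 3270.2 and 3276 in DMSO (log2 fold change -0.40, SE 0.16, limma adjusted p = 0.0502, or 0.00599 with the block).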
